A study of Mus musculus with 52 samples.

Results

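The 7 genes described here encode the hormones that hypothalamic neurons release into the blood of the posterior pituitary or into the portal vessels of the anterior pituitary. They are Avp and Oxt, the neurohypophysial pair, the releasing hormone genes Trh, Crh, Ghrh and Gnrh1, and Sst, the inhibiting one. They were picked by symbol, with earlier results of these data known, and all 7 have a row among the 46071 genes counted. Their levels were followed in 52 RNA libraries from the hypothalamus, nucleus accumbens and hippocampus of 3-month-old male C57BL/6J mice. C57BL/6J is a common inbred strain, and no group carried a transgene or a mutation. Each awake mouse, with a catheter in the jugular vein, received an infusion for 3 h while infused glucose adjusted its blood glucose, a procedure called a clamp. The infusion was saline (the basal group), insulin at 4 mU/kg/min (the low rate) or insulin at 12 mU/kg/min (the high rate). The hypothalamus gave 5 saline, 6 low-rate and 5 high-rate libraries, and each of the other regions gave 6 of each. The comparison of rates addresses how insulin in the circulation changes gene expression in the brain.

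Vasopressin, from Avp, acts on the kidney to save water, and oxytocin, from Oxt, acts on the uterus and the mammary gland. Both are made as longer precursors by large neurons of the paraventricular and supraoptic nuclei, and vasopressin also by neurons of the suprachiasmatic nucleus, the circadian clock. Thyrotropin-releasing hormone (Trh) and corticotropin-releasing hormone (Crh) from the paraventricular nucleus drive the thyroid and adrenal axes. Growth hormone-releasing hormone (Ghrh), from the arcuate nucleus, and somatostatin (Sst), from the periventricular nucleus, raise and lower growth hormone. Gonadotropin-releasing hormone (Gnrh1) comes from a small number of scattered septal and preoptic neurons. Sst is also a marker of a class of inhibitory interneurons throughout the forebrain, so that it is not a hypothalamic gene alone.

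Avp and Oxt are neighbours on chromosome 2 and share sequence, which bears on how reads are counted. In GRCm38, Oxt (ENSMUSG00000027301) spans chr2:130576173-130577054 on the plus strand and Avp (ENSMUSG00000037727) spans chr2:130580620-130582554 on the minus strand, with 3565 bases between the end of Oxt and the start of Avp. The exonic stretches that encode the 9 amino acids of each mature hormone are shown with the 5 bases that differ in capitals, since they show how close the pair is.
Avp (chr2:130582446-130582472, minus strand): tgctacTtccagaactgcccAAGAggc
Oxt (chr2:130576267-130576293, plus strand): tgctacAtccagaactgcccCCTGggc
The longest coding run that is identical in both transcripts has 127 bases and crosses an exon junction.
Avp and Oxt, shared run: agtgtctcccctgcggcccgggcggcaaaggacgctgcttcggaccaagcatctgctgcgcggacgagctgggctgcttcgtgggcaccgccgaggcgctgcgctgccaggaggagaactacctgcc
Of the stretches of 50 bases, the length of 1 read, 78 of the 528 in the Avp transcript also lie in Oxt, and 78 of the 488 in the Oxt transcript also lie in Avp. Reads from those stretches may be lost or put on the other gene, so the exact ratio of Avp to Oxt is uncertain.

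Sst and Trh had the smallest adjusted p-values of the 7 in the insulin comparison given further on, and their promoters are shown for that reason. Each is the RefSeq stretch of 300 bases around the gene start in GRCm38.p6, 5′ to 3′, and capitals mark a match to TGACGTCA, the cAMP response element, or to TGACCTCA, a 1-base variant of it.
Sst (chr16:23890795-23891094, minus strand): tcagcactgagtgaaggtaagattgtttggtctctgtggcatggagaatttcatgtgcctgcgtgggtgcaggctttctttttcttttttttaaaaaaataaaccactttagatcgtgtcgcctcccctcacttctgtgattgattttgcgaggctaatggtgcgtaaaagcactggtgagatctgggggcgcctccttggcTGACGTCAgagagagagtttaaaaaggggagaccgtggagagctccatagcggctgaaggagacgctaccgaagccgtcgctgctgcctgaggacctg
Trh (chr6:92244601-92244900, minus strand): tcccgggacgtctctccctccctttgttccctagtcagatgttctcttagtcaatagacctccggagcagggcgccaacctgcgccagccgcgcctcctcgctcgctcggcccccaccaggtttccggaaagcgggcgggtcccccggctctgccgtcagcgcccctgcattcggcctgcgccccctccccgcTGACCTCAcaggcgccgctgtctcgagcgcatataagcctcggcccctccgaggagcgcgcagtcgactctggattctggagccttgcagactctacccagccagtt
The match starts at -48 in Sst and at -57 in Trh, counted from the gene start. Both motifs were searched on both strands. TGACGTCA is in 588 of 32851 RefSeq promoters (1.79%) and TGACCTCA in 712 (2.17%). RefSeq promoters were matched for 5 of the 7 genes, and neither motif occurs in those of Avp, Oxt and Ghrh. These matches are descriptions of letters only.

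Total counts per library ran from 2453412 to 8279612, with a median of 4654641.5. Replicate numbers only follow the order of the deposited samples, and the labels tie no library to an animal, so p-values measure the spread between libraries, which may be partly technical. Defining markers of each region were present: the 6 striatal projection neuron genes summed to between 637 and 1600 CPM (counts scaled by library total) in accumbens libraries, and the 6 pyramidal neuron genes to between 1140 and 2530 CPM in hippocampal ones. The pyramidal genes also reached 914 CPM in an accumbens library. In hypothalamic libraries the 6 genes of lateral and arcuate peptide neurons (Hcrt, Pmch, Pomc, Agrp, Cartpt and Tac2) summed to between 41.4 and 1330 CPM. A pair of hypothalamic libraries stood apart in Hcrt and Pomc. In high-rate replicate 3, Hcrt, which encodes orexin, Pmch, which encodes melanin-concentrating hormone, and Pomc were at 0.161, 1.93 and 0.161 CPM. In low-rate replicate 2, Hcrt and Pomc were at 1.8 and 0.2 CPM. In the other 14 libraries Hcrt was at 25.2 CPM or more. Among those, low-rate replicates 1 and 6 and high-rate replicate 5 had low sums of the 6 peptide genes, at 333, 242 and 332 CPM. Saline libraries had sums of 621 CPM or more. The insulin comparisons and correlations of the hypothalamus are given with and without the pair that stood apart in Hcrt and Pomc.

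Under saline, Avp, Oxt and Trh were higher in the hypothalamus than in either other region, Crh and Gnrh1 were higher in the hypothalamus and in the accumbens than in the hippocampus, and Sst was not called between any 2 regions. Levels between genes are compared per kilobase of exon, as CPM per kb. In the 5 saline hypothalamic libraries Avp was at 261 ± 161, Oxt at 232 ± 158 and Sst at 147 ± 89.5 CPM per kb (SD, n = 5), and these 3 did not differ beyond their spread. Trh followed at 44.0 ± 21.7, then Ghrh at 5.29 ± 5.65, Crh at 5.07 ± 3.38 and Gnrh1 at 2.66 ± 0.653 CPM per kb, and these last 3 overlapped. In the 6 saline accumbens libraries the order was Sst at 133 ± 36.8, Oxt at 29.3 ± 19.6, Trh at 7.46 ± 3.84, Gnrh1 at 5.81 ± 1.72, Avp at 5.56 ± 9.30, Crh at 5.48 ± 2.75 and Ghrh at 0.392 ± 0.367 CPM per kb (SD, n = 6). In the 6 saline hippocampal libraries Sst stood at 118 ± 48.3 CPM per kb and the 6 other genes had means under 1 CPM per kb.

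**Figure D1:**
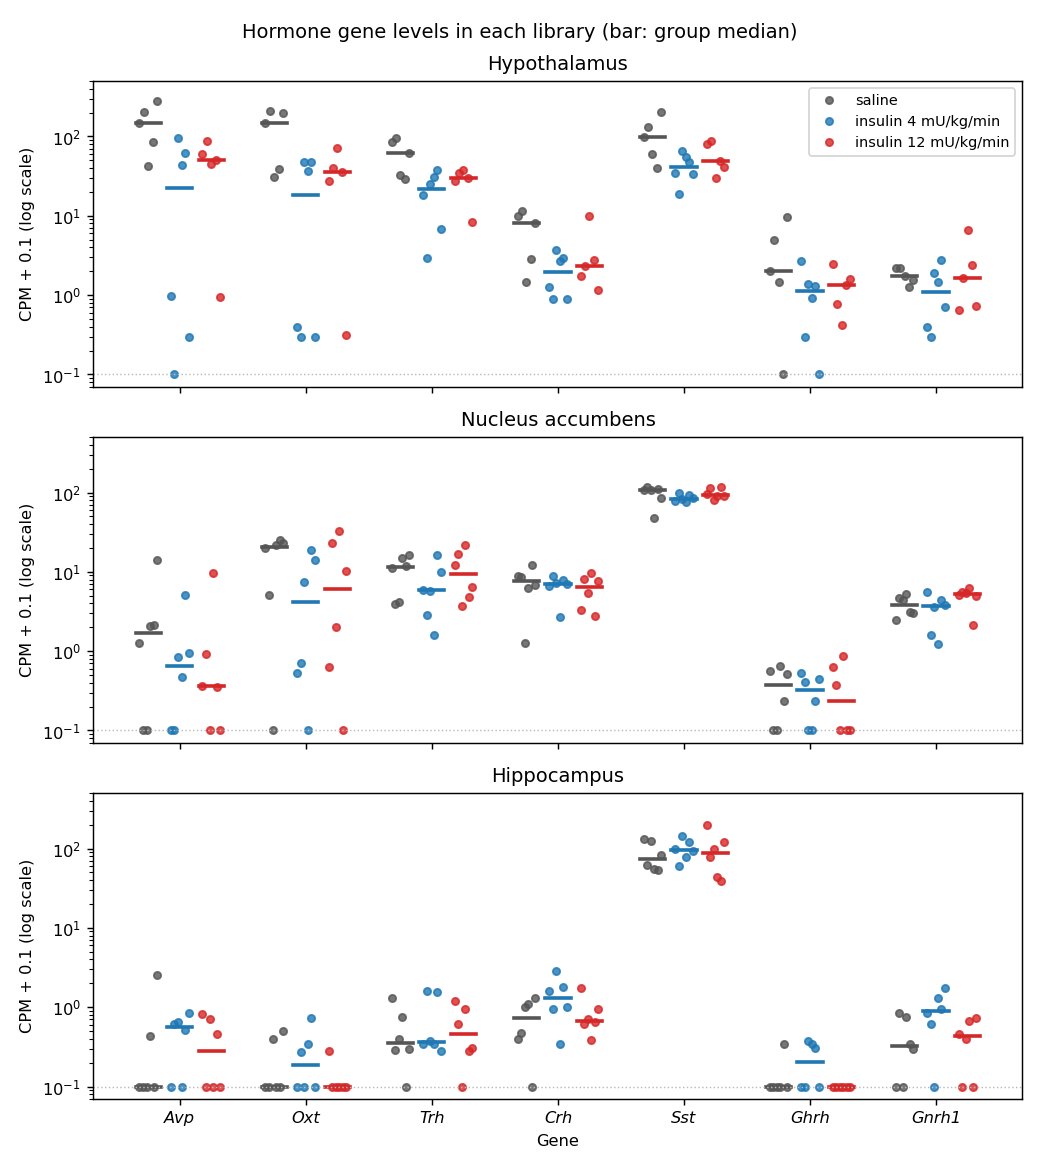
Level of each gene in every library as CPM + 0.1 on a log axis, for saline and for insulin at 4 and 12 mU/kg/min in each region. Points are libraries, short bars are group medians, and the dotted line marks 0 CPM. Sst stays in 1 band across the regions, Avp and Oxt fall into separate clusters in the hypothalamus, and Oxt spreads from 0 to 33.0 CPM in the accumbens.

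The regional tests used 1 edgeR quasi-likelihood fit of all 52 libraries, with Benjamini-Hochberg adjusted p-values. Genes with adjusted p under 0.05 are called. Between hypothalamus and hippocampus under saline, 46.0% of the 14985 genes tested were called, and 5 of the 6 hormone genes tested were called, each of them higher in the hypothalamus. Avp averaged 151 ± 93.0 CPM in hypothalamic libraries (SD, n = 5) and 0.456 ± 0.964 CPM in hippocampal libraries (SD, n = 6), and its log2 fold change was 8.09 with an SE of 1.21 and an edgeR adjusted p of 2.65e-07. Trh averaged 60.9 ± 30.0 CPM in the hypothalamus against 0.422 ± 0.433 CPM in the hippocampus, a log2 difference of 7.25 (SE 0.72, edgeR adjusted p = 1.07e-11). Oxt, at 125 ± 85.1 CPM in hypothalamic libraries and 0.117 ± 0.184 CPM in hippocampal ones, was called with an adjusted p of 4.78e-07 by edgeR. Since the 6 hippocampal libraries held 3 Oxt counts in all, the size is better given from pooled counts: 3574 against 3, a ratio per total count of 1220 with an exact 95% interval of 418 to 5940. That interval, like all intervals on counts here, covers counting error only. Crh and Gnrh1 were also called, with log2 fold changes of 3.41 (SE 0.61) and 2.35 (SE 0.68). Without the libraries that lean to GC-rich transcripts, described below, Crh and Gnrh1 missed the threshold, with edgeR adjusted p = 0.261 for Crh and 0.137 for Gnrh1. That fit loses 3 of the 5 saline hypothalamic libraries. Ghrh did not pass the filter on low counts of this fit. It had 101 counts in saline hypothalamus against 1 in saline hippocampus, a ratio of 104 with an interval of 18.2 to 4140.

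Against the accumbens, the hypothalamus was higher in Avp, Oxt and Trh, while Crh, Gnrh1 and Sst were not called. The share of all genes called was 32.1%, and 3 of 6 hormone genes tested were called. They were Avp, with a log2 fold change of 5.53 (SE 0.95), Oxt, with 2.97 (SE 0.84), and Trh, with 2.56 (SE 0.47). Avp was the one of these still called without the GC-leaning libraries, where Oxt had a log2 fold change of 1.20 and Trh of 1.59, with edgeR adjusted p = 0.624 and 0.127. This fit too loses 3 of the 5 saline hypothalamic libraries. With DESeq2 Oxt also missed the threshold, at an adjusted p of 0.0603. Crh averaged 6.70 ± 4.46 CPM in the hypothalamus and 7.24 ± 3.63 CPM in the accumbens, a log2 fold change of -0.09 with a 95% interval of -0.99 to 0.81. Gnrh1 averaged 1.71 ± 0.419 CPM in the hypothalamus and 3.73 ± 1.10 CPM in the accumbens, and the log2 fold change of -1.06 had an edgeR adjusted p of 0.0789. Sst averaged 106 ± 64.5 CPM against 96.0 ± 26.5 CPM, with a log2 fold change of 0.15 and a 95% interval of -0.52 to 0.83.

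Between accumbens and hippocampus, 29.2% of genes were called, and 4 of 6 hormone genes were called, all higher in the accumbens. Crh and Gnrh1 had log2 fold changes of 3.51 (SE 0.59) and 3.40 (SE 0.61), and Trh one of 4.69 (SE 0.78). Oxt had 521 counts in saline accumbens against 3 in saline hippocampus, a ratio of 152 with an interval of 51.6 to 738. Its adjusted p was 0.00121 by edgeR and 0.178 by limma-voom, so this call depends on the tool. Avp, with a log2 fold change of 2.56 (SE 1.51, edgeR adjusted p = 0.22), and Sst, with 0.16 (SE 0.32), were not called.

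Within the hypothalamus, Avp and Oxt either were abundant or were nearly missing. In saline replicates 1 to 5 Avp had 764, 1530, 278, 219 and 1312 counts, which is 148, 203, 41.8, 85.0 and 276 CPM. At the low rate replicates 1 to 6 had 0.873, 0.0, 94.4, 43.4, 61.9 and 0.2 CPM. At the high rate replicates 1 to 5 had 60.3, 86.9, 44.7, 50.4 and 0.85 CPM. Thus 12 libraries held more than 100 Avp counts and the other 4 held 4 or fewer, and these 4 were low-rate replicates 1, 2 and 6 and high-rate replicate 5. Oxt divided the libraries in the same way: it had 147, 207, 30.9, 39.2 and 199 CPM under saline, 0.291, 0.2, 47.8, 36.4, 47.5 and 0.2 CPM at the low rate, and 27.7, 40.0, 71.0, 36.0 and 0.212 CPM at the high rate. Each of the 4 libraries with almost no Avp held 1 Oxt count.

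The ratio of Avp to Oxt counts in the 12 other libraries ran from 0.63 in high-rate replicate 3 to 2.18 in high-rate replicate 1. The SD of log2 CPM over the 16 libraries was 3.14 for Avp and 3.09 for Oxt, against a median of 0.33 over the 14139 genes compared. No gene exceeded the spread of Avp and 1 gene, Avp, exceeded that of Oxt. In bulk tissue, fewer cells of a type and less RNA per cell cannot be told apart, and this holds for every difference below.

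**Figure D2:**
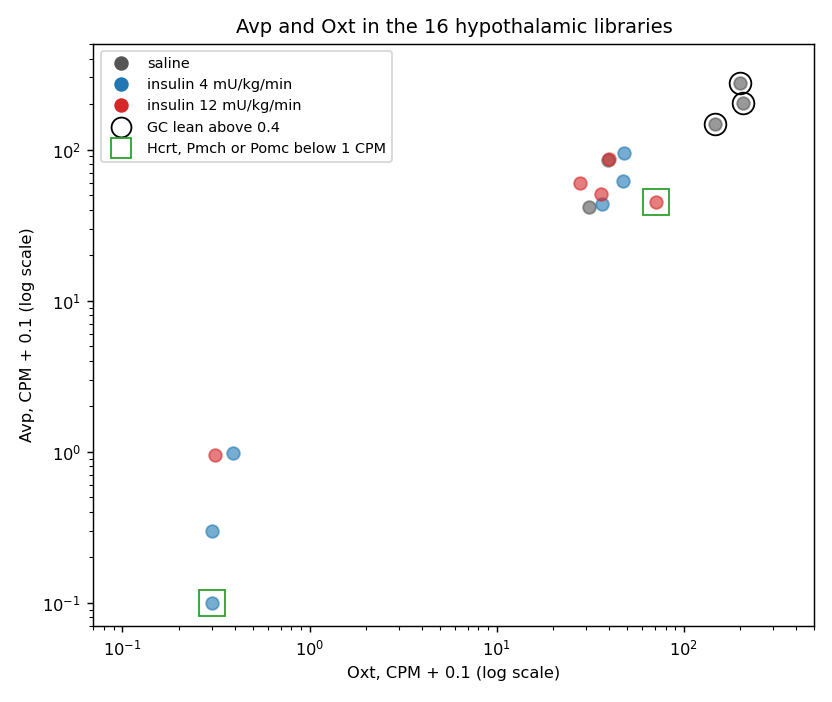
Avp against Oxt in the 16 hypothalamic libraries, both as CPM + 0.1 on log axes, coloured by infusion. Circles ring the 3 saline libraries with a GC lean above 0.4 and squares mark the libraries where Hcrt, Pmch or Pomc is below 1 CPM. A group of 12 libraries lies at 27.7 CPM of Oxt or more, a group of 4 insulin libraries lies below 1 CPM in both genes, and saline replicate 4 and high-rate replicate 2 nearly coincide.

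Crh, Ghrh and Gnrh1 were low in all hypothalamic libraries. Crh was at 9.88, 11.5, 1.35, 2.72 and 8.0 CPM in saline replicates 1 to 5, at 1.16, 0.799, 3.58, 2.61, 2.86 and 0.8 CPM in low-rate replicates 1 to 6, and at 1.63, 2.21, 9.81, 2.65 and 1.06 CPM in high-rate replicates 1 to 5. Saline replicates 1, 2 and 5 and high-rate replicate 3 were the high ones, and the groups overlapped. Ghrh ran from 0 to 9.47 CPM under saline, from 0 to 2.62 CPM at the low rate and from 0.322 to 2.35 CPM at the high rate, with at most 45 counts in a library. Gnrh1 ran from 1.16 to 2.13 CPM under saline, from 0.2 to 2.71 CPM at the low rate and from 0.543 to 6.44 CPM at the high rate. Its highest value was that of high-rate replicate 3, with 40 counts.

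Trh and Sst were detected in every hypothalamic library. Trh was at 85.0, 95.5, 32.4, 29.1 and 62.7 CPM under saline, at 18.3, 2.8, 25.3, 30.5, 37.4 and 6.8 CPM at the low rate, and at 27.2, 34.7, 37.8, 30.2 and 8.28 CPM at the high rate. The same 4 libraries that nearly lacked Avp and Oxt had the 4 lowest Trh levels. Sst was at 97.6, 131, 59.5, 40.0 and 203 CPM under saline, at 34.9, 18.8, 64.7, 54.7, 48.1 and 34.0 CPM at the low rate, and at 81.0, 86.9, 29.9, 49.5 and 41.2 CPM at the high rate. For all 7 genes the insulin groups overlapped the saline group. Among all 14139 genes, 0.99% had low-rate libraries all below the saline ones and 0.905% had high-rate libraries all below them.

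**Figure D3:**
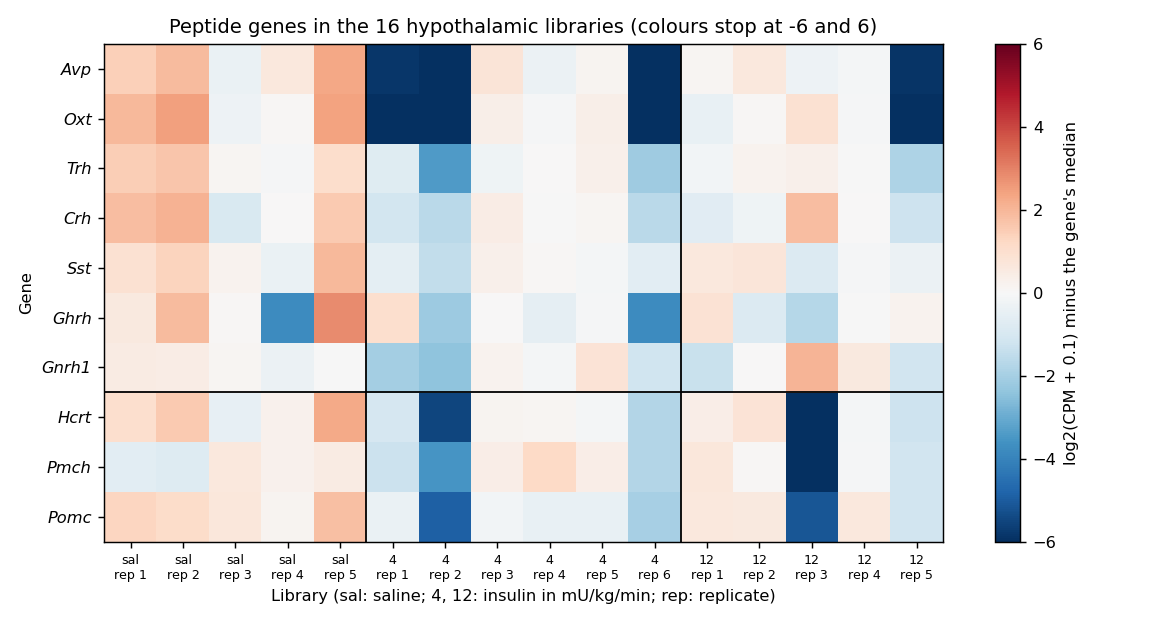
The 7 hormone genes and, below the line, Hcrt, Pmch and Pomc in each hypothalamic library, as log2(CPM + 0.1) minus the gene's median over the 16 libraries, with colours that stop at -6 and 6. Saline replicates 1, 2 and 5 are red for most of the 7 genes, low-rate replicates 1, 2 and 6 and high-rate replicate 5 are blue for Avp and Oxt, and high-rate replicate 3 is dark blue for Hcrt, Pmch and Pomc, pale blue for Avp and red for Oxt and Crh.

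At the low rate no hormone gene passed the threshold in the hypothalamus, although all 7 had a log2 fold change below 0. Of all genes tested 5.38% were called, 508 higher and 252 lower, and 0 of the 7 were among them. An unadjusted p under 0.05 by edgeR was seen in 5 of the 7 and in 4221 of the 14139 genes tested. The median log2 fold change of the 7 was -1.76, against -0.02 over all genes. The direction was not particular to these 7. All 6 genes of lateral and arcuate peptide neurons were also below 0, with a median of -1.17. Sst averaged 42.5 ± 16.5 CPM (SD, n = 6) at the low rate and 106 ± 64.5 CPM (SD, n = 5) under saline, a log2 fold change of -1.31 (SE 0.38, edgeR adjusted p = 0.0527). Trh averaged 20.2 ± 13.5 CPM and 60.9 ± 30.0 CPM in the same groups, with -1.58 (SE 0.49, edgeR adjusted p = 0.0627). Crh had -1.76 (SE 0.58, edgeR adjusted p = 0.0713) and Ghrh -1.93 (SE 0.69, edgeR adjusted p = 0.0888). These 4 genes came nearest to the threshold, and in each of them some insulin libraries lay within the saline range. Oxt averaged 22.1 ± 24.3 CPM at the low rate and 125 ± 85.1 CPM under saline, with -2.48 (SE 1.00, edgeR adjusted p = 0.122). Avp averaged 33.5 ± 39.8 CPM and 151 ± 93.0 CPM, with -2.16 (SE 1.02, edgeR adjusted p = 0.169). Avp and Oxt had the widest SEs of the 7 genes. Gnrh1 had -0.50 with a 95% interval of -1.80 to 0.81.

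DESeq2 called 3 of the 7 at the low rate, namely Sst, Trh and Crh, where it called 12.0% of all genes. Its adjusted p was 0.0104 for Sst, 0.0439 for Trh and 0.0317 for Crh. limma-voom called 0 of the 7. The edgeR count was 4 (Sst, Trh, Crh and Ghrh) without saline replicate 3 and also without saline replicate 4. In those fits 18.0% and 22.1% of all genes were called. These saline libraries had the lowest Crh levels and did not lean to GC-rich transcripts (GC lean, described below, of -0.235 and -0.16). Without either of them, most of the saline libraries left were GC-leaning ones. The edgeR count was 1 (Crh) without high-rate replicate 3, where 3.68% were called.

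At the high rate 0 of the 7 were called by edgeR, DESeq2 or limma-voom, where 0.184% of all genes were called by edgeR. An unadjusted p under 0.05 by edgeR was seen in 3 of the 7 and in 3406 of the 14139 genes tested. The log2 fold changes of high rate minus saline were -1.83 (SE 1.04) for Oxt, -1.63 (SE 1.06) for Avp, -1.59 (SE 0.70) for Ghrh, -1.14 (SE 0.51) for Trh, -0.93 (SE 0.57) for Crh and -0.88 (SE 0.40) for Sst. That of Gnrh1 was 0.43 (SE 0.57), and it was -0.46 without high-rate replicate 3, the library that nearly lacked Hcrt and Pomc. The smallest edgeR adjusted p of the 7 was 0.184, for Ghrh. Both rates were set against the same 5 saline libraries. Between high and low rates 0.0% of genes were called by edgeR, DESeq2 or limma-voom, with 199 at an unadjusted p under 0.05, and 0 of the 7 hormone genes had an unadjusted p under 0.05.

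A lean of libraries towards GC-rich transcripts moved with these values. Within a library, the deviation of each gene from its regional mean can go with the GC content of its transcript, and the rank correlation of both is called the GC lean here. Saline replicates 1, 2 and 5 of the hypothalamus had leans of 0.642, 0.703 and 0.417, and 0 of the 11 insulin libraries there was above 0.4. Over all regions 10 libraries were above 0.4, and 8 of them were among the 9 libraries of the lowest range of tag numbers, described below. Whether the lean comes from library preparation or from the tissue was not tested. These 3 saline libraries also had the highest levels of Avp, Oxt and Trh. All 7 hormone transcripts were richer in GC than the median of 48.5% over genes with counts: Avp has 65.7%, Oxt 60.5%, Ghrh 56.4%, Sst 56.0%, Trh 54.5%, Crh 51.1% and Gnrh1 49.8%. That median covers 31475 genes with a count in any library, not only the genes tested, and Crh and Gnrh1 lie close to it. With the lean as a covariate, low minus saline was -2.58 for Oxt, -2.27 for Avp, -1.29 for Trh and -0.98 for Sst, and edgeR adjusted p-values of the 7 were 0.536 or more. Without the 3 saline libraries, which leaves 2, the low-rate values were -0.62 for Oxt, -0.88 for Avp, -0.59 for Trh, -0.24 for Sst, 0.13 for Crh and 0.06 for Ghrh. Without them the high-rate values were 0.02 for Oxt, 0.96 for Crh, 0.19 for Sst and 0.40 for Ghrh. The GC lean and its threshold of 0.4 were chosen after seeing the data.

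**Figure D4:**
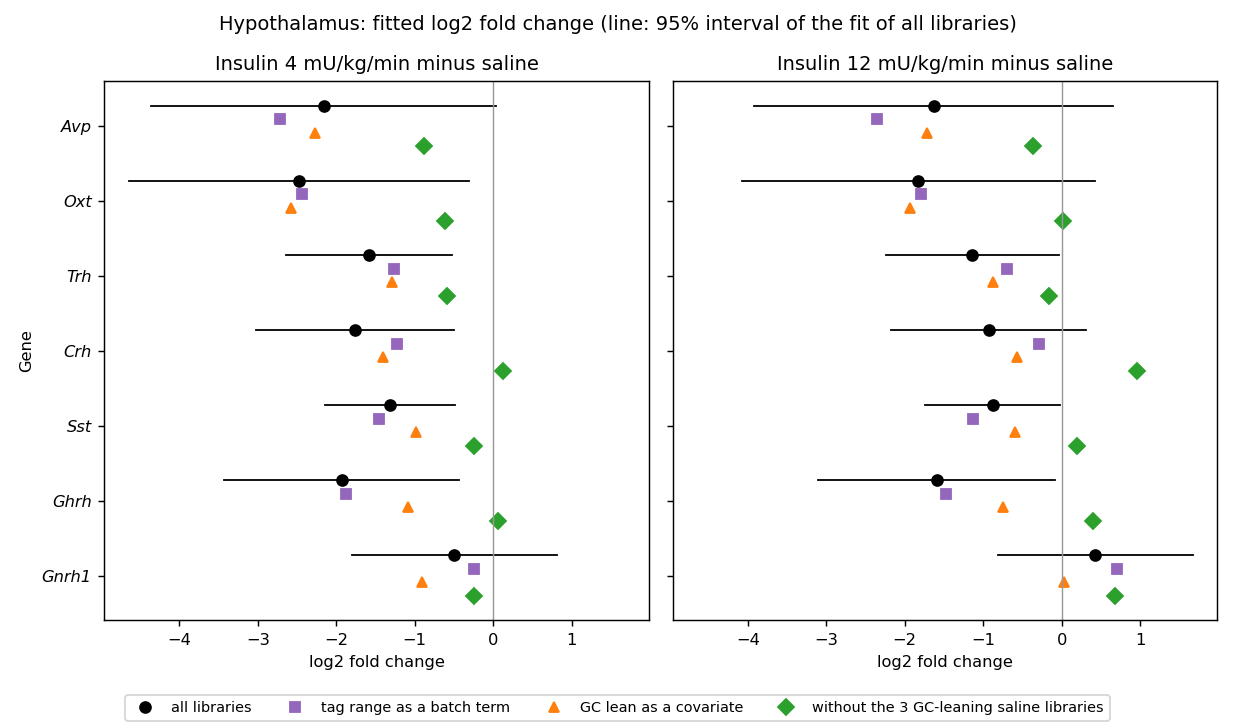
Fitted log2 fold changes in the hypothalamus for insulin at 4 mU/kg/min minus saline (left) and at 12 mU/kg/min minus saline (right). Circles with 95% intervals are the fit of all 16 libraries, and the other symbols add the range of tag numbers as a batch term, add the GC lean as a covariate, or leave out the 3 GC-leaning saline libraries. Without those libraries the low-rate value moves to -0.62 for Oxt and 0.13 for Crh.

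The sample titles carry tag numbers that fall into 3 ranges, a possible batch. Only the highest range holds all infusions of the hypothalamus, with 3 libraries each, and the middle range holds no saline one. In the highest range Avp averaged 134 CPM under saline, 35.2 CPM at the low rate and 32.0 CPM at the high rate, with ranges of 41.8 to 276, 0.2 to 61.9 and 0.85 to 50.4 CPM. Oxt averaged 89.8, 28.0 and 35.7 CPM in the same order, Sst 101, 45.6 and 40.2 CPM, Crh 4.02, 2.09 and 4.51 CPM, and Gnrh1 1.43, 1.56 and 3.12 CPM. The saline means of the first 3 genes rest on the GC-leaning saline replicate 5: over the 2 other saline libraries of that range Avp averaged 63.4, Oxt 35.0 and Sst 49.7 CPM. In the lowest range the 1 low-rate library had 0.873 CPM of Avp, against a mean of 175 CPM in 2 saline libraries. In a fit with tag range as an added factor, low minus saline was -2.44 for Oxt, -1.45 for Sst and -1.26 for Trh, with edgeR adjusted p = 0.311, 0.127 and 0.237.

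Summed markers of other cells and nuclei differed in range between the groups, and their part in the result was not tested. The 5 genes listed for suprachiasmatic neurons summed to 33.7 to 57.4 CPM under saline, 51.8 to 78.2 CPM at the low rate and 51.5 to 92.4 CPM at the high rate. Of the 3 of them tested at the low rate 1 was called higher. This sum is not particular to that nucleus, as it was 24.9 to 50.4 CPM in hippocampal and 28.2 to 63.2 CPM in accumbens libraries. Of the listed genes, Vip was at 0.387 to 17.7 CPM and Prok2 at 0 to 7.4 CPM in hypothalamic libraries. The 6 genes of lateral and arcuate peptide neurons summed to 621 to 1330 CPM under saline, 70.7 to 1280 CPM at the low rate and 41.4 to 1020 CPM at the high rate. The 5 thalamic genes summed to 378 to 687, 551 to 1120 and 383 to 717 CPM in that order, and the 4 astrocyte genes to 1400 to 2490, 2020 to 3260 and 2400 to 2910 CPM. Astrocyte sums were thus lowest under saline, with overlap, and 2 of those 4 genes were called higher at the low rate. The 4 ependymal genes summed to 14.0 to 45.7, 12.2 to 20.7 and 15.5 to 21.7 CPM, with median log2 fold changes of -1.03 at the low rate and -0.91 at the high rate, and 1 was called lower at the low rate. The 4 oligodendrocyte genes gave 4050 to 7670, 4830 to 10900 and 4080 to 7580 CPM. The 8 pituitary genes, of which Lhb was at 0 in every hypothalamic library, summed to 3.37 to 34.3, 3.47 to 71.6 and 4.18 to 9.13 CPM.

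In the 4 libraries with almost no Avp, Nr5a1, a factor of ventromedial neurons, was at 0 to 2.12 CPM, against 15.1 CPM or more in all others but high-rate replicate 3, and Six6, a factor of the ventral hypothalamus, was at 0 to 2.76 CPM. The 6 lateral and arcuate peptide genes summed to 70.7 to 333 CPM in these 4 libraries. They summed to 621 CPM or more in all others but high-rate replicate 3, at 41.4 CPM. Sim1, a factor that paraventricular neurons need in mice, was at 6.99 to 16.8 CPM in these 4 libraries, against 5.97 to 34.6 CPM in the 12 others. Otp, another factor of those neurons, was at 2.2 to 24.5 CPM in the 4 libraries, against 18.5 to 68.4 CPM in the 12 others. Low-rate replicate 2 also held 84.7 CPM of Slc17a7, the vesicular glutamate transporter of cortical neurons, where the 15 other hypothalamic libraries held 18.0 CPM or less. High-rate replicate 3 had 57.1 CPM of Drd1, a dopamine receptor of striatal neurons, and 330 CPM over 5 septal and preoptic genes, above every other hypothalamic library in both, and it held the highest Gnrh1 level.

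Both ways of leaving out libraries that follow were chosen after seeing the data. Leaving out the 2 libraries with Hcrt, Pmch or Pomc below 1 CPM gave log2 fold changes of low rate minus saline of -2.22 for Oxt, -1.90 for Avp, -1.60 for Crh, -1.35 for Trh and -1.16 for Sst. No hormone gene was called then, with edgeR adjusted p of 0.1 or more. Leaving out the 5 libraries in which any of these peptides, Avp or Oxt was below 1 CPM gave -0.98 for Trh, -1.22 for Crh, -0.95 for Sst and -1.77 for Ghrh. Avp and Oxt were not read there because they chose the libraries. Of the libraries left out, the 4 with almost no Avp also had the 4 lowest Trh and the 4 lowest Crh levels. Smaller low-rate differences in Trh and Crh thus follow in part from that choice.

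Most pairs of the hormone genes other than Gnrh1 were correlated across hypothalamic libraries by Pearson r, but fewer by Spearman rho as well. Because Avp and Oxt form separate clusters, correlations of log2(CPM + 1) were computed over the 12 libraries with more than 100 Avp counts, for 21 pairs, with permutation p-values. Oxt and Crh had Pearson r = 0.92 and Spearman rho = 0.92 (permutation p = 0.00012 and 5e-05, adjusted 0.00126 and 0.00105), r = 0.92 without the 2 libraries farthest from the Oxt median, r = 0.82 in the 7 libraries of the highest tag range and r = 0.97 without high-rate replicate 3. Oxt and Trh had r = 0.93 and rho = 0.73 (permutation p = 0.00051 and 0.00867, adjusted 0.00326 and 0.0455), with r = 0.88 without the 2 farthest, 0.96 in the highest tag range and 0.93 without high-rate replicate 3. Sst and Ghrh had r = 0.89 and rho = 0.80 (permutation p = 0.00011 and 0.00251, adjusted 0.00126 and 0.0264), with r = 0.69 without the 2 farthest, 0.96 in the highest tag range and 0.89 without high-rate replicate 3. Avp and Oxt had r = 0.85 and rho = 0.76 (permutation p = 0.00146 and 0.00608, adjusted 0.00613 and 0.0426), with r = 0.61 without the 2 farthest, 0.85 in the highest tag range and 0.92 without high-rate replicate 3. These pairs are the ones with an adjusted p under 0.05 for both r and rho. After removing infusion means, r was 0.93 for Oxt with Crh, 0.89 for Oxt with Trh, 0.87 for Sst with Ghrh and 0.78 for Avp with Oxt. Crh with Sst and Crh with Ghrh did not pass by r (adjusted permutation p = 0.335 and 0.228). Every other pair without Gnrh1 passed by r alone. Among them were Avp with Sst (r = 0.84, adjusted permutation p = 0.00326) and Trh with Crh (r = 0.82, adjusted permutation p = 0.00777). The 3 GC-leaning libraries are among the 12 libraries used. Oxt and Sst had r = 0.66, which dropped to 0.13 without the 2 farthest, so that relation rests on those libraries. The same holds for Oxt with Ghrh, where r went from 0.68 to 0.05, and for Avp with Ghrh, from 0.73 to 0.13. For the 6 pairs with Gnrh1 the adjusted permutation p of r was 0.0846 or more.

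Over all 16 libraries, the protein-coding genes whose rank order was most like that of a hormone gene were listed as a description, without a test. The points share depth and GC lean. For Oxt they were Crh (rho = 0.96), Islr2 (0.95) and Rftn1 (0.95), and for Crh they were Oxt (0.96), Rftn1 (0.94) and Islr2 (0.93). Those of Trh were Trpc7, a cation channel (0.98), Vax1, a forebrain homeobox factor (0.96), and Kcnk2, a potassium channel (0.95). Avp was nearest to Sppl3 (0.92), Zdhhc14 (0.91) and Txndc5 (0.90). Sst was nearest to Fezf1 (0.91), Hcrt (0.91) and Plppr2 (0.90). Ghrh was nearest to Spcs1, Camk1 and Arl16 (0.88 each), and Gnrh1 to Prune1 (0.89), Ddn (0.89) and Wfs1 (0.87).

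Of the genes that bind, degrade or specify these hormones, Lnpep and Mme, which encode peptide-cleaving enzymes, were called at the low rate, beside the 5.38% called among all genes. Both are among the 6 clearance genes, all tested in the hypothalamus, of which 2 were called higher and 0 lower, with a median log2 fold change of 0.24. Over the 3 lists that is 2 of the 6, 10 and 14 genes tested, a share near that of all genes. Lnpep, the insulin-regulated aminopeptidase that cleaves oxytocin and vasopressin, averaged 29.0 ± 29.4 CPM at the low rate and 3.95 ± 2.63 CPM under saline, a log2 fold change of 3.03 (SE 0.58, edgeR adjusted p = 0.0131). The low-rate median was 17.0 CPM, and low-rate replicate 2 held 88.4 CPM. Without that library the log2 fold change was 2.24 (edgeR adjusted p = 0.0082). Some high-rate libraries elsewhere were also high in Lnpep, at 58.8 and 69.8 CPM in the hippocampus and at 63.3 and 65.0 CPM in the accumbens. The other libraries of those groups were at 1.62 to 10.7 CPM. Mme, neprilysin, a peptidase of broad specificity, averaged 24.1 ± 6.16 CPM and 11.1 ± 3.69 CPM in the same groups, with 1.15 (SE 0.22, edgeR adjusted p = 0.0123). At the high rate Lnpep had 1.92 (SE 0.60) and Mme 1.01 (SE 0.23), with edgeR adjusted p = 0.134 and 0.0678, and neither was called. Both low-rate calls were lost in the fit with tag range as an added factor (edgeR adjusted p = 0.0838 for Lnpep and 0.075 for Mme), with the GC lean as a covariate (0.188 and 0.147), without the 3 GC-leaning libraries (0.811 each), without the 5 libraries lacking a peptide (0.0617 and 0.116) and without saline replicate 2 (0.0667 and 0.058). They were kept without the 2 libraries lacking Hcrt, Pmch or Pomc (0.00544 and 0.0455). Trhde, which degrades the hormone from Trh, and Crhbp, the binding protein of the hormone from Crh, had 0.34 and 0.13.

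Of the 15 receptor genes, 10 were tested in the hypothalamus and 0 were called at either rate by edgeR, where 5.38% of all genes were called at the low rate and 0.184% at the high rate, with a median of -0.15 at the low rate. The 2 with the smallest p were not past the threshold: Sstr5, a somatostatin receptor, at -0.93 (edgeR adjusted p = 0.0754), and Crhr1, the main receptor of the hormone from Crh, at 0.68 (edgeR adjusted p = 0.144). At the high rate the 2 smallest were those of Sstr3, at -0.33, and Sstr5, at -0.61. Oxtr, the oxytocin receptor, averaged 12.3 ± 3.22 CPM at the low rate and 12.9 ± 0.974 CPM under saline. Of the 16 transcription factor genes of neuroendocrine neurons, 14 were tested and 0 were called at either rate, beside the same shares of all genes, with a median of -0.58 at the low rate. Otp, which paraventricular and supraoptic neurons need in mice, had -1.26 (edgeR adjusted p = 0.0665) and Six6 had -1.26 (edgeR adjusted p = 0.0943), neither past the threshold. Otp averaged 19.6 ± 10.7 CPM at the low rate and 47.2 ± 16.2 CPM under saline, and Sim1 averaged 21.0 ± 9.06 CPM and 13.2 ± 5.38 CPM, with 0.71 (edgeR adjusted p = 0.149). Neither passed the threshold at the high rate, where Sim1 had 0.81 and Otp -0.79. Without saline replicate 3 or saline replicate 4 Otp was called lower, with edgeR adjusted p = 0.0453 and 0.0293. In those fits most of the saline libraries left were GC-leaning ones.

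In the nucleus accumbens, Oxt ranged from 0 to 33.0 CPM and the factors of paraventricular neurons ranged with it. Oxt was at 19.9, 5.0, 0, 21.5, 25.3 and 22.8 CPM in saline replicates 1 to 6, at 0.432, 0.607, 7.44, 0, 18.7 and 13.9 CPM at the low rate, and at 0.532, 23.0, 1.92, 33.0, 0 and 10.1 CPM at the high rate. Each infusion had 1 library at 0 and others above 10 CPM, so the groups overlapped throughout. Low minus saline was -1.08 (SE 1.02) and high minus saline -0.50 (SE 1.00), with edgeR adjusted p = 1.0 for both. Avp stayed at or below 2.06 CPM in 15 of the 18 libraries and reached 14.0 CPM in saline replicate 6, 9.70 CPM in high-rate replicate 4 and 4.96 CPM in low-rate replicate 5. Trh ran from 1.49 to 21.9 CPM and was detected in all 18.

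Over the 18 accumbens libraries, 20 pairs were correlated as log2(CPM + 1) with permutation tests. Oxt and Otp had r = 0.88 and rho = 0.87 (permutation p = 2e-05 and 1e-05, adjusted 0.00015 and 0.0001), and Oxt and Sim1 r = 0.85 and rho = 0.90 (permutation p = 3e-05 and 1e-05, adjusted 0.00015 and 0.0001). A p of 1e-05 is the smallest these permutations can give. Oxt and Trh had r = 0.79 and rho = 0.79 (permutation p = 0.00016 and 0.0002, adjusted 0.00064 and 0.00084), with r = 0.74 without the 2 libraries farthest from the Oxt median, 0.82 in the 6 libraries of the middle tag range, 0.91 in the 9 of the highest, and 0.80 after removing infusion means. For Oxt with Otp these 4 values were 0.86, 0.92, 0.86 and 0.87, and for Oxt with Sim1 they were 0.84, 0.94, 0.88 and 0.84. Sst with Oxt had r = -0.10 and rho = 0.06 (permutation p = 0.715 and 0.823, adjusted 0.785 and 0.902). Without the 3 libraries that had 0 Oxt counts, r over the other 15 was 0.85 for Oxt with Otp, 0.83 with Sim1 and 0.73 with Trh. The 3 libraries without any Oxt count held 701, 544 and 548 CPM of Slc17a7, and the 15 with Oxt counts held 1.64 to 266 CPM. Drd1 was at 160 to 463 CPM in all 18. Whether the border of the dissected tissue sets the Oxt level was not tested.

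**Figure D5:**
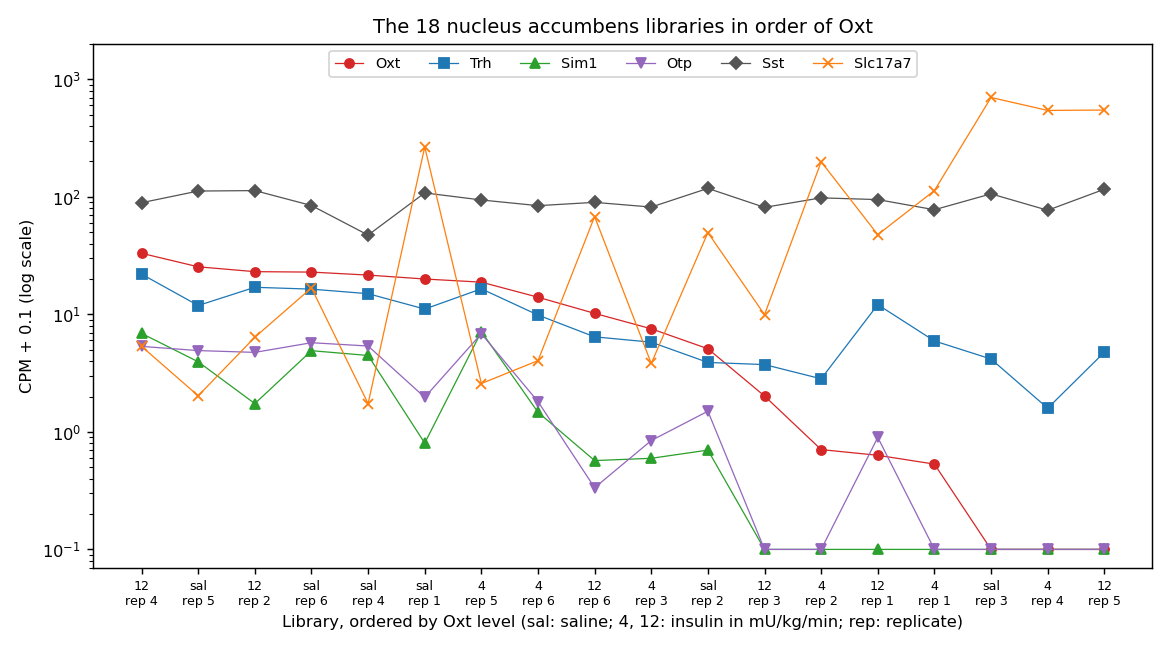
The 18 accumbens libraries from the highest to the lowest Oxt level, with Oxt, Trh, Sim1, Otp, Sst and Slc17a7 as CPM + 0.1 on a log axis. Sim1 and Otp decline along with Oxt and are at 0 in the 3 libraries without Oxt, where Slc17a7 is at 544 CPM or more. They are also at 0 in high-rate replicate 3 and low-rate replicates 1 and 2, with 9, 2 and 2 Oxt counts. Sst stays between 47.2 and 118 CPM.

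The other accumbens genes had group means that differed by less than their spread. Crh was at 7.24 ± 3.63 CPM under saline, 6.63 ± 2.13 CPM at the low rate and 6.02 ± 2.75 CPM at the high rate, and Gnrh1 at 3.73 ± 1.10, 3.26 ± 1.65 and 4.84 ± 1.45 CPM (SD, n = 6 each). Sst was at 96.0 ± 26.5, 85.4 ± 8.75 and 97.4 ± 14.3 CPM. Of all 13769 genes tested there, 0.0% were called by edgeR for either rate against saline, with 196 and 326 at an unadjusted p under 0.05, and 0.0% between the rates, with 292. DESeq2 and limma-voom called 0 as well. Of the 5 hormone genes tested, 0 were called and 0 had an unadjusted p under 0.05 in any of these 3 comparisons. Avp and Ghrh did not pass the filter, and Ghrh was at 0.776 CPM or less in all 18 libraries.

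In the hippocampus, Sst alone was abundant enough to be tested. It was at 84.9 ± 34.8 CPM under saline, 99.1 ± 29.9 CPM at the low rate and 96.9 ± 59.4 CPM at the high rate (SD, n = 6 each). Its log2 fold change was 0.22 (SE 0.34) for low minus saline and 0.19 (SE 0.34) for high minus saline, with 95% intervals of -0.50 to 0.95 and -0.53 to 0.92. The share of the 13515 genes called by edgeR was 0.0% for each rate against saline and between the rates, with 817, 353 and 384 at an unadjusted p under 0.05. limma-voom also called 0, and DESeq2 called 38 for the low rate against saline and 0 in the others. Oxt had at most 3 counts and Ghrh at most 1 count in any hippocampal library, and all 6 high-rate libraries had 0 Ghrh counts, which allows a level of up to 0.107 CPM over that group. Avp had at most 4 counts except in saline replicate 6, with 12. Crh ran from 0 to 2.79 CPM, Trh from 0 to 1.52 CPM and Gnrh1 from 0 to 1.65 CPM.

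Whether the insulin difference depended on region was tested as the interaction of region and infusion over all 52 libraries. For low rate minus saline, 0.0% of 14985 genes were called by edgeR between hypothalamus and hippocampus, with 3634 at an unadjusted p under 0.05, and 0.0% between hypothalamus and accumbens, with 2107. For high rate minus saline the share was 0.0% in both cases, with 1423 and 2821. DESeq2 called 38 and 6 genes at the low rate and 0 at the high rate, and limma-voom called 0. None of the 6 hormone genes tested was called in any of these 4 comparisons. Unadjusted p under 0.05 occurred for 3 genes (Crh, Sst and Gnrh1) at the low rate against the hippocampus, for 2 (Crh and Sst) at the low rate against the accumbens, for 1 (Sst) at the high rate against the hippocampus and for 0 at the high rate against the accumbens. The low-rate difference in Sst between hypothalamus and hippocampus was -1.55 (SE 0.47, edgeR adjusted p = 0.115), and that in Crh was -2.79 (SE 0.87, edgeR adjusted p = 0.115). Against the accumbens Sst had -1.16 (SE 0.47, edgeR adjusted p = 0.294) and Crh -1.64 (SE 0.65, edgeR adjusted p = 0.29).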

How the data were processed

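The authors deposited 1 table of counts of reads per Ensembl gene, not normalized, for 52 libraries. Per the labels, these were stranded Wafergen libraries sequenced as read pairs of 50 bases. Per the submitters' processing notes, STAR and featureCounts were used with GRCm38.p4; versions, options and strand setting were not given in the sources used here. Counts merge isoforms and, with no molecular identifiers, include copies made by PCR. GENCODE M21 (GRCm38) named 45143 of 46071 genes, and 14321 have no count. Each region was fitted alone with its 3 infusions, and regions were compared in 1 fit of all 52 libraries, with edgeR 4.0.16 under R 4.3.3 (TMM, filterByExpr, robust quasi-likelihood test, Benjamini-Hochberg adjustment over all genes tested, adjusted p under 0.05 called). Whether regions share mice is not stated. CPM come from TMM-scaled totals over all 52 libraries, and CPM per kb from exon length. DESeq2 1.42.0 and limma-voom (limma 3.58.1) were alternatives. The steps were tested on simulated data. The genes, lists and tests were chosen with earlier results of these data known. Beside the 7 genes, those named are the 3 nearest in rank order to each, and the called genes of the receptor, clearance and factor lists, or else the 2 with the smallest p; Oxtr, Trhde, Crhbp, Sim1 at the low rate and the marker genes of single libraries were chosen after their values were seen. The table held 0 columns of values with no sample in the labels.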

Additional observations from a re-analysis of the deposited data

Results flagged for a closer look

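Within each of 43 groups of a gene, a region and an infusion with at least 10 counts, the highest and the lowest library were compared with the nearest of the others by Dixon's test. It set 7 libraries apart, where chance gives about 1 in 20 groups if levels are normally distributed. The flagged Avp groups hold 2 to 4 libraries at 0 counts, so that rate may not hold for them. In the hypothalamus, Crh in high-rate replicate 3 was at 9.81 CPM and the next highest at 2.65 CPM. This is the library with Hcrt and Pomc at 0.161 CPM. In the accumbens, Avp was at 4.96 CPM in low-rate replicate 5, where the next was at 0.857 CPM, at 9.70 CPM in high-rate replicate 4, where the next was at 0.82 CPM, and at 14.0 CPM in saline replicate 6, where the next was at 2.06 CPM. These are the libraries with the highest Otp level of their infusion group. Crh was low in accumbens low-rate replicate 4, at 2.61 CPM with the next at 6.48 CPM, and Gnrh1 was low in accumbens high-rate replicate 5, at 2.01 CPM with the next at 4.93 CPM. Both are libraries with 0 Oxt counts. In the hippocampus, Avp in saline replicate 6 was at 2.41 CPM, with the next at 0.328 CPM. What sets these values was not tested.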

How the results depend on the processing

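The count of hormone genes called at the low rate in the hypothalamus, 0 by edgeR at 0.05, was 4 at a threshold of 0.1, 3 with DESeq2, 3 with all 52 libraries in 1 fit, and 0 to 4 when single libraries were left out. The share of all genes called, 5.38%, was then 16.5%, 12.0%, 4.9%, and 0.365% to 22.1%. It was 0 in the other fits. Between hypothalamus and accumbens the count of 3 was 1 without GC-leaning libraries (lean above 0.4, 10 of 52 libraries, with 3 of the 5 saline hypothalamic ones). Without those libraries, log2 fold changes turned round for Oxt (0.02), Crh (0.96), Sst (0.19) and Ghrh (0.40) at the high rate, for Crh (0.13) and Ghrh (0.06) at the low rate, for Sst between hypothalamus and hippocampus (-0.58) or accumbens (-0.88), and for Crh in the low-rate difference between hypothalamus and accumbens (0.18). With the GC lean as a covariate Sst between hypothalamus and accumbens was -0.11. Gnrh1 turned round at the low rate without libraries lacking any of 5 peptides (0.14) and at the high rate with limma-voom (-0.10), without libraries lacking Hcrt, Pmch or Pomc (-0.46), without any of 5 peptides (-0.27). Leaving out 1 library at a time gave -0.46 to 0.69 for Gnrh1 at the high rate, -0.40 to 0.18 for Crh between hypothalamus and accumbens, -0.05 to 0.51 for Sst between hypothalamus and hippocampus, -0.21 to 0.35 for Sst between hypothalamus and accumbens, and -0.13 to 0.36 for Sst at the high rate in the hippocampus. The cause of these changes was not tested. The count of all genes called at the low rate in the hypothalamus was 760, against 1690 with DESeq2, 29 with tag range added to the fit, 22 with the GC lean as a covariate, 3 without GC-leaning libraries, 105 without the 2 libraries lacking Hcrt, Pmch or Pomc, 24 without those lacking any of 5 peptides, 2334 at a threshold of 0.1, and 52 to 3171 when single libraries were left out. At the high rate it was 26, against 359 with DESeq2, 53 with limma-voom, 50 with no filter, 199 at a threshold of 0.1, 5, 4, 1 and 9 in the fits with tag range, with the GC lean, without GC-leaning libraries and without the 5 lacking a peptide, 0 with all 52 libraries in 1 fit, and 6 to 1861 when single libraries were left out. The labels give no shared replicate numbers. Runs of consecutive tag numbers hold up to 1 library of each infusion per region, and the labels do not say what a run shares. In the hypothalamus 9 of 12 same-run pairs had deviations from their group means correlated above 0.1 (range -0.05 to 0.56). Libraries of a run may share variation, but pairs from different runs are not given for comparison, so this was not tested. The main fits leave the run out and treat these libraries as independent, which is a limit on their p-values. With the run as a replicate block, added after seeing the data, 0 hormone genes were called in any region, 16 genes were called at the low rate and 0 at the high rate in the hypothalamus, with 2567 and 1136 at an unadjusted p under 0.05, and Lnpep and Mme were not called (edgeR adjusted p = 0.118 and 0.144). At 0 to 45 counts per library, Ghrh and Gnrh1 are limited by depth.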
